A study of Mus musculus with 89 samples.

Results

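The OVA effect in CuO 40 exposed lung was the contrast of mice given allergen together with core CuO and mice given the same particle dose without allergen. It asked what the allergen changed in lungs that received the particle in the same aspirations. Both arms were chosen by their labels, CuO 40 + OVA with 3 samples and CuO 40 with 3 samples, so that 6 of the 89 samples of the series entered it.

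All mice of the groups used here, the controls included, were female BALB/c mice aged 6 to 8 weeks, and all had been sensitized to ovalbumin (OVA) with alum, on day 1 and day 10. After a 10-day recovery they received PBS or OVA by oropharyngeal aspiration once a day on 4 days, with or without CuO, and lung tissue was taken 24 h after the last dose. The sample descriptions and the study's methods give the dose as 40 μg a day per mouse, while the protocol field of the same labels has mg for it. The 3 CuO 40 samples received particle in PBS, the 3 CuO 40 + OVA samples particle and OVA, the 7 PBS control samples PBS only and the 8 OVA control samples OVA only. A PBS-challenged mouse was thus sensitized but not challenged, and not a naive animal. Every sample came from a pool of 2 RNA preparations, which was labelled with 1 of 2 dyes for a 2-colour mouse array, so that the spread between samples is that between pools.

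In the lung of a sensitized mouse, inhaled allergen activates T helper 2 cells and innate lymphoid cells, which release interleukins 4, 5 and 13. These cytokines draw eosinophils through eotaxins, turn airway epithelium towards mucus-making goblet cells and turn macrophages towards the alternatively activated state. Copper oxide particles release copper ions and irritate the airway, and are known for a neutrophil-rich inflammation.

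Spots well above background made up 51.7% to 64.6% of an array channel in the 6 samples, no spot was saturated, and correlations between samples of 1 group were at least 0.9955. Of the 12 alveolar type 2 and 10 club cell markers, 0 were below background in both groups. Replicates 1, 2 and 3 of both groups lay on slides 1, 2 and 3, and replicate 2 of both was the Cy5-labelled one, so that each pair of equal numbers shared a slide and a dye. Signal levels below are log2 intensities after the terms for dye, slide and array position were removed. A gene was called where limma's adjusted p was below 0.05 and the log2 fold change was above 0.58 in size (1.5-fold), over 22911 genes.

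With CuO 40, OVA raised 83 genes and lowered 14, which is 0.423% of the genes tested (0.362% higher, 0.0611% lower). The median of the 83 rises was 0.88 on the log2 scale, and each of the 83 was higher in all 3 OVA samples than in all 3 CuO 40 samples and in each of the 3 same-slide pairs. Such a separation upwards was found for 9.17% of all genes, and downwards for 10.9%. The calls compare these same 6 samples and so favour it, and it adds no support to them. Genes of the eosinophil list, the chemokines that draw eosinophils, goblet cell genes and genes of alternatively activated macrophages led the rises. Their number depended on the batch terms and on which samples entered the fit. The study's methods take labelling and array into account, and with dye and each hybridisation as fixed terms 5 genes were higher and 0 lower, with 940 at an unadjusted limma p under 0.05. These 5 were Ccl11, Ccl8, Ear10, Prg2 and Rnase2a, all among the 83. With the 6 samples alone, 0 genes were called without a block (1038 at an unadjusted p under 0.05), while the replicate number as a block gave 12 higher and 0 lower (2041). With the replicate number and dye as the batch terms of all 89 samples, 62 were higher and 14 lower. Of the 12 genes, 8 were among the 83: Ccl8, Cd209e, Chil3, Clca1, Ear10, Fcgr2b, Pdcd1lg2 and Rnase2a. The other 4 were Cd163, Ear1, Ear2 and Ifit2 (Fcgr2b, Cd163 and Ifit2 are named here after their values were seen). Single samples also moved the count. Rises numbered 33 without CuO 40 replicate 2, 16 without CuO 40 replicate 3, 47 without CuO 40 + OVA replicate 2 and 30 without CuO 40 + OVA replicate 3. Of the 12 largest rises named below, Prg2 lost its call without CuO 40 replicate 3 and Itln1 without replicate 3 of either group, and the other 10 kept theirs whichever of the 6 samples was left out.

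Clca1, a secreted protein of goblet cells that regulates a calcium-activated chloride channel, had the largest rise. Its levels were 7.13, 6.59 and 5.71 in the CuO 40 samples and 13.21, 12.91 and 13.27 in the CuO 40 + OVA samples. The groups were far apart, with a log2 fold change of 6.65 (SE 1.04, adjusted p = 0.000269). The lower group was well above background in 1 of its 3 samples, so that the size is uncertain, and it ran from 5.21 to 8.90 over the alternatives. Ccl8, a chemokine that attracts monocytes and CCR8-bearing T helper 2 cells, stood at 10.71, 10.26 and 9.62 without and at 13.14, 13.68 and 13.83 with allergen. Every OVA sample was above every CuO 40 sample, and the rise was 10.2-fold (log2 3.35, SE 0.58, adjusted p = 0.00110).

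Most genes of the eosinophil list rose. Of 13 measured eosinophil markers, 9 were higher and 0 lower, with a median log2 effect of 1.19 against -0.02 over all genes. Of the 13, 11 were higher without overlap between the groups. Over all genes 0.362% were called higher and 9.17% were higher without overlap. The mean level of the list was 7.20 to 7.39 in the CuO 40 samples and 8.53 to 8.57 in the CuO 40 + OVA samples. Fewer cells of a type and less RNA per cell cannot be told apart in such bulk tissue. The list is not specific to eosinophils, since Ear1, Ear2 and Siglecf are also on the alveolar macrophage list. In PBS controls Rnase2a stood at 12.1 to 12.82 and Ear10 at 11.82 to 12.24. The study detected lavage eosinophils only in OVA-challenged groups. Which cells carried these transcripts was not tested. The eosinophil-associated ribonuclease Rnase2a (listed as Ear11) was measured at 9.27, 9.35 and 9.16 without and at 11.43, 11.92 and 11.65 with allergen, a 5.29-fold rise (log2 2.40, SE 0.31). Ear10, another ribonuclease of the family, stood at 8.64, 8.65 and 8.62 and at 10.14, 10.68 and 10.35, a 3.37-fold rise (log2 1.75, SE 0.26, adjusted p = 0.000159). Both were far apart between the groups, and each was called in 22 of 23 alternative settings, the highest number among the 83 rises. Ear6 rose by 1.19 (SE 0.27).

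The members Ear1 and Ear2 had log2 effects of 1.02 and 1.00 and were not called. The ribonucleases are paralogs on chromosome 14. Whether a probe reads more than 1 of them was not tested, so that a split of the signal between members is uncertain. The bases just before their transcription starts are shown because these members moved together. They are RefSeq promoter sequence of the build GRCm38.p6, 120 bases each, 5′ to 3′ on the gene's strand, with capitals for runs of at least 8 bases that all 3 share: chr14:43923597-43923716 (minus strand) for Ear10, chr14:51853648-51853767 (plus strand) for Ear6 and chr14:51256113-51256232 (minus strand) for Rnase2a.
Ear10: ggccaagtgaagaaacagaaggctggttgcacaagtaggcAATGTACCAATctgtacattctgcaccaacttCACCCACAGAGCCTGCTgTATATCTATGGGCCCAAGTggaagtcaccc
Ear6: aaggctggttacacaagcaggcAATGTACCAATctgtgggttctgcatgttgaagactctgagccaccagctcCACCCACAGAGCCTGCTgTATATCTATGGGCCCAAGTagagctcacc
Rnase2a: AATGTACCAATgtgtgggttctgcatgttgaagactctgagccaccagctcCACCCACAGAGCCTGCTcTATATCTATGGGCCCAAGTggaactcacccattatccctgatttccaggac
In a global alignment Ear10 and Ear6 were identical at 93 of 139 columns (66.9%), Ear6 and Rnase2a at 94 of 142 (66.2%) and Ear10 and Rnase2a at 82 of 144 (56.9%). The windows begin at different points of the shared sequence, and the gaps this leaves at the ends count as columns. These shares therefore understate the match where the windows overlap.

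The granule proteins and regulators of eosinophils followed. Prg2, the major basic protein of the granule, went from 6.13, 6.69 and 5.61 to 8.11, 7.87 and 8.33, a 3.89-fold rise (log2 1.96, SE 0.35). Cebpe, a transcription factor of late granulocyte maturation, stood at 8.13, 8.47 and 7.98 and at 10.21, 10.01 and 9.99 (log2 1.88, SE 0.32). Epx, the eosinophil peroxidase, was not well above background in any CuO 40 sample and measured in all 3 samples with allergen, at least 2.19-fold higher (adjusted p = 0.0242). This bound sets the mean of the OVA samples against, on each array, the higher of the probe's own signal and the lowest signal among probes well above background. Alox15, a lipoxygenase of eosinophils and macrophages, rose by 1.61 (SE 0.28) and the eotaxin receptor Ccr3 by 1.16 (SE 0.27). The 2 remaining members, the interleukin 5 receptor chain Il5ra and the granule protein Prg3, had effects of 0.37 and 0.06.

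**Figure D1:**
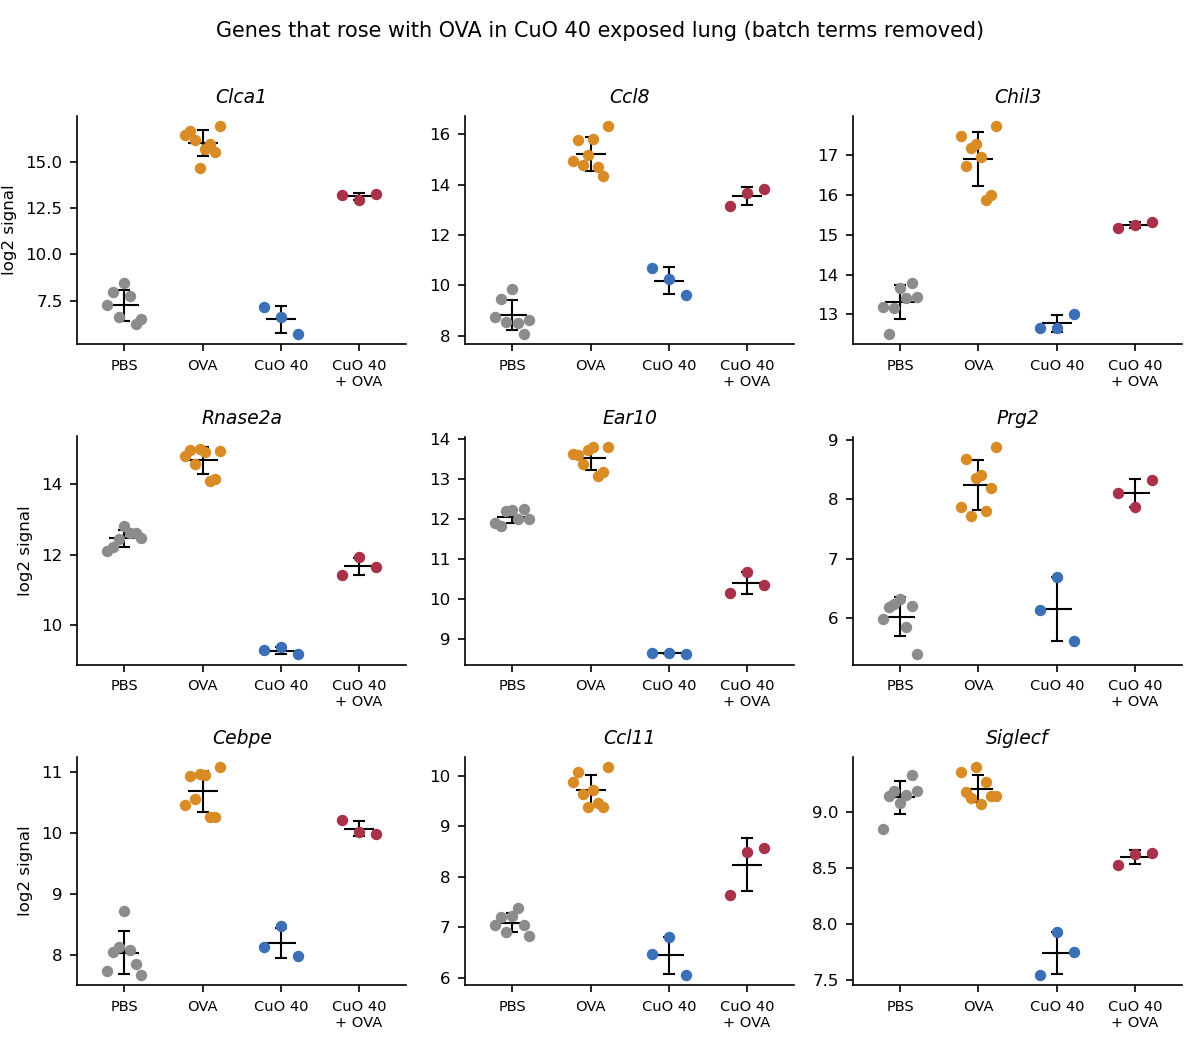
Log2 signal of 9 genes in each sample of 4 groups, after dye, slide and position terms were removed, where points are samples and the line and bars are the mean and SD of 7 PBS, 8 OVA, 3 CuO 40 and 3 CuO 40 + OVA samples. In all 9 panels the 3 CuO 40 + OVA samples lie above the 3 CuO 40 samples, while for Rnase2a, Ear10 and Siglecf the samples of both CuO 40 groups lie under the PBS means of 12.46, 12.05 and 9.13.

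Chemokines and their receptors differed among themselves. Ccl11, an eotaxin, stood at 6.47, 6.80 and 6.06 without and at 7.64, 8.5 and 8.58 with allergen (log2 1.80, SE 0.31, adjusted p = 0.00101). Ccl24, the other eotaxin, was at 8.68, 9.42 and 8.80 and at 10.55, 11.08 and 9.74. Its groups did not overlap, yet the log2 effect of 1.49 had an SE of 0.41 and was not called (adjusted p = 0.0644). Ccl17, which attracts CCR4-bearing T cells, had an effect of 0.43 (SE 0.27). Of the 11 chemokines and receptors of eosinophils and T helper 2 cells, 3 rose (Ccl8, Ccl11, Ccr3) and 0 fell. Ccl8 and Ccl11 were called in 20 of 23 alternatives and Ccr3 in 8.

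The cytokines of the allergic response were little measured by these probes. Il13 was not well above background in any of the 6 samples. Il4 stood between 5.68 and 5.94 without and between 6.30 and 7.02 with allergen, an effect of 0.80 (SE 0.26, adjusted p = 0.174), and was above background in 1 and 2 samples of 3. The epithelial alarmin Il33 was at 10.22, 10.38 and 10.05 and at 10.29, 10.38 and 10.35. It did not separate the groups, with an effect of 0.12 (SE 0.21). Among 17 T helper 2 cytokines and receptors 0 were called. In 3 of them every OVA sample was higher, a separation found for 9.17% of all genes, and nothing is read from so few.

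Few goblet cell genes were called. Besides Clca1, 2 of the 18 measured genes were called, and the median effect of the list was 0.62. Itln1, a lectin secreted with mucus, stood at 8.12, 8.68 and 8.36 and at 10.12, 10.02 and 10.45, a 3.51-fold rise (SE of the log2 value 0.40). Spdef, the transcription factor of goblet cell differentiation, rose by 0.96 (SE 0.25, adjusted p = 0.0455), a call made in 9 of 23 alternatives. Muc5ac, the inducible gel-forming mucin, was measured at 7.46, 7.06 and 6.79 without and at 8.68, 8.30 and 8.66 with allergen. These groups did not overlap, but the effect of 1.44 had an SE of 0.51 and an adjusted p of 0.221. Muc5b, at 0.51 (SE 0.41), overlapped between the groups.

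Macrophage genes formed the third group. Of 18 genes of alternatively activated macrophages 5 rose and 0 fell, with a median effect of 0.75. Chil3, a chitinase-like lectin made by macrophages, went from 12.65, 12.67 and 13.02 to 15.17, 15.24 and 15.31, a 5.49-fold rise (log2 2.46, SE 0.49). Its paralog Chil4 went from 6.24, 6.58 and 6.31 to 8.92, 8.42 and 8.30 (log2 2.17, SE 0.39). In both genes every sample with allergen was above every sample without it.

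The 120 bases before the starts of both chitinase-like genes are shown for the same reason as those of the ribonucleases, from the same RefSeq table and with the same use of capitals, at chr3:106167565-106167684 (minus strand) for Chil3 and chr3:106219480-106219599 (minus strand) for Chil4. They were identical at 83 of 149 columns of the alignment (55.7%), which again counts the end gaps of offset windows and understates the match where they overlap.
Chil3: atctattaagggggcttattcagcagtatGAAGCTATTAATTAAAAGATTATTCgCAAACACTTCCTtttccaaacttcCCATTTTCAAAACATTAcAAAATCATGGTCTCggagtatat
Chil4: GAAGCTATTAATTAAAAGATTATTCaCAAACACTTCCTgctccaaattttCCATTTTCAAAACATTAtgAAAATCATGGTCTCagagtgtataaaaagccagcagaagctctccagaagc

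The other called members of this list were Cd209e, Pdcd1lg2 and Mrc1. Cd209e, a C-type lectin, stood at 5.73, 5.91 and 5.54 without and at 7.82, 8.25 and 7.82 with allergen, a 4.71-fold rise (log2 2.24, SE 0.41). Pdcd1lg2, a ligand of the T cell checkpoint receptor PD-1, stood at 6.02, 6.06 and 6.00 and at 7.32, 7.64 and 7.30 (log2 1.39, SE 0.29). Mrc1, the mannose receptor, rose by 1.02 (SE 0.21). Pdcd1lg2 and Mrc1 lost their calls without CuO 40 replicate 3 or without CuO 40 + OVA replicate 2. Arg1, the arginase of these macrophages, was at 9.70, 10.52 and 9.80 and at 11.59, 12.07 and 10.86. Its groups did not overlap, but the effect of 1.5 (SE 0.54) was not called.

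Because interleukins 4 and 13 act through STAT6, whose preferred site is TTC and GAA with 4 bases of any kind between them, the 250 bases before each start in the RefSeq table were searched for these letters, which read the same on both strands. They were present in 8 of the 63 risen genes that had a promoter in the table (12.7%), in 0 of the 9 fallen genes, in 75 of the 802 genes raised by OVA in controls (9.35%) and in 1169 of all 18077 genes (6.47%). A match is no more than these letters. The risen genes that held them were Acp5, Cd209e, Cd53, Lair1, Lgals3, Pdcd1lg2, Retnlg and Tfec. The 40 bases around the match are shown for the 2 whose macrophage role is described above, with the match in capitals, at chr8:3854341-3854380 (minus strand) and chr19:29410822-29410861 (plus strand).
Cd209e: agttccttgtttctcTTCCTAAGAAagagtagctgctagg
Pdcd1lg2: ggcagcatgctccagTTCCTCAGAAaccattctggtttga

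Alveolar macrophage markers were mixed. Of 17 measured, 5 rose, among them Siglecf, a sialic acid-binding lectin of eosinophils and alveolar macrophages. Its levels were 7.55, 7.93 and 7.75 without and 8.53, 8.63 and 8.64 with allergen (log2 0.86, SE 0.17, adjusted p = 0.00673), and without CuO 40 replicate 3 it was not called. The samples with allergen still lay under the PBS controls, whose mean was 9.13 ± 0.15 (SD, n = 7). Atp6v0d2, a proton pump subunit of macrophages, rose by 0.94 (SE 0.19). Fabp1, a fatty acid-binding protein on the same list, stood at 10.09 ± 0.24 in PBS controls (SD, n = 7) but between 6.06 and 6.13 in CuO 40 and between 6.11 and 6.39 in CuO 40 + OVA. The mean level of the list rose from 9.47 to 9.54 without to 9.98 to 10.15 with allergen.

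Few T cell genes were called. Of 23 T cell genes 3 were called, 22 had an effect above 0 and the median was 0.43. Icos, a costimulatory receptor of activated T cells, went from 7.19, 6.94 and 6.84 to 7.84, 8.11 and 8.29 (log2 1.09, SE 0.22). It lost its call without CuO 40 replicate 2, without CuO 40 replicate 3 or without CuO 40 + OVA replicate 3. Cd5 rose by 0.92 (SE 0.21) and Cd2 by 0.70 (SE 0.17), called in 9 and 10 of 23 alternatives. Il7r, the receptor chain shared by interleukin 7 and the alarmin TSLP, rose by 0.92 (SE 0.21). The mean level of the T cell list was 7.04 to 7.33 in CuO 40 and 7.48 to 7.69 in CuO 40 + OVA.

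Interferon response genes separated more often than they were called. All 19 had an effect above 0, with a median of 0.86, and 18 did not overlap between the groups, against 9.17% of all genes. Gbp5, a guanylate-binding protein, was the 1 member called, at 7.53, 7.42 and 7.24 without and at 8.10, 8.66 and 8.55 with allergen (log2 1.04, SE 0.26, adjusted p = 0.0373). Of 11 monocyte chemokines 0 were called, with a median of 0.58. B cell and plasma cell genes had a median of 0.39 with 9 of 17 higher without overlap. Of 19 neutrophil genes Retnlg alone rose (1.12, SE 0.29), a call made in 7 of 23 alternatives, and the mean level of that list overlapped, at 9.86 to 10.34 and 10.08 to 10.52. Among mast cell and basophil, B cell and plasma cell, ciliated, club, alveolar type 1, alveolar type 2, endothelial and erythrocyte markers, 0 genes were called. Of 21 complement and coagulation genes 11 were higher without overlap and 2 were called, C3 (0.84, SE 0.21) and the coagulation factor F7 (0.89, SE 0.22).

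The 14 genes that fell had a median effect of -0.72. The largest fall was that of the predicted gene D730003K21Rik, named here outside the rule after its values were seen, at 7.60, 9.11 and 8.24 without and 7.12, 7.30 and 7.19 with allergen (log2 -1.11, SE 0.23, adjusted p = 0.0106). Sprr1a, a precursor of the cornified envelope, stood at 7.57, 7.99 and 8.15 without and at 7.35, 6.80 and 6.67 with allergen, 1.95-fold lower (log2 -0.96, SE 0.24, adjusted p = 0.0398). Ereg, an epidermal growth factor receptor ligand, went from 7.74, 8.49 and 8.46 to 7.35, 7.50 and 7.07 (log2 -0.92, SE 0.22). In both genes the groups were apart, with replicate 1 of CuO 40 the nearest to the samples with allergen. Pappa, a protease that cleaves insulin-like growth factor binding proteins, fell by 0.77 (SE 0.17) and Tnfrsf12a, the receptor of TWEAK, by 0.67 (SE 0.15). Further falls were those of the proton pump subunit Atp6v0a4 (-0.74), the ceramide synthase Cers3 (-0.70), the scaffold protein Homer2 (-0.67), the melanocortin receptor accessory protein Mrap (-0.65) and the kinase inhibitor Camk2n2 (-0.60).

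After the fall, Sprr1a and Ereg were still above the control means. Sprr1a averaged 6.00 ± 0.28 in PBS (SD, n = 7) and 6.42 ± 0.20 in OVA controls (SD, n = 8), and Ereg 5.51 ± 0.13 and 5.70 ± 0.15 in the same groups, and each of these means lay below the 3 samples with CuO 40 and allergen. Pappa averaged 6.72 ± 0.13 in PBS controls (SD, n = 7), near its 6.90, 6.92 and 6.83 with CuO 40 and allergen. These calls changed with single samples. With CuO 40 replicate 2 or CuO 40 + OVA replicate 3 left out 0 genes were lower, with CuO 40 replicate 3 left out 3 were and with CuO 40 + OVA replicate 2 left out 7 were, while 54 were without CuO 40 replicate 1 and 25 without CuO 40 + OVA replicate 1.

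**Figure D2:**
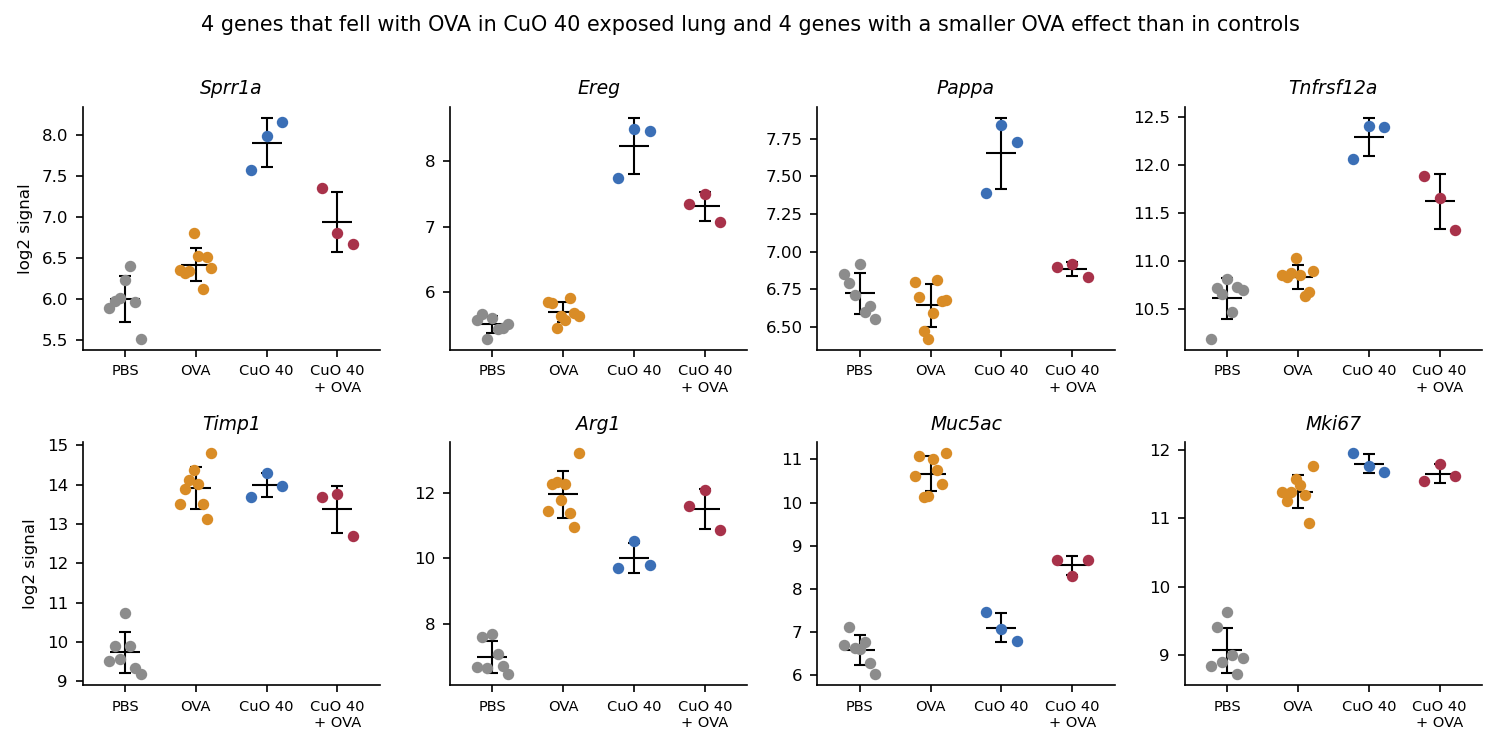
Log2 signal, batch terms removed, of 4 genes that fell with OVA in CuO 40 exposed lung (Sprr1a, Ereg, Pappa, Tnfrsf12a) and 4 whose OVA effect was smaller than in controls (Timp1, Arg1, Muc5ac, Mki67). Points are samples of the 4 groups and the line and bars the mean and SD; for Mki67 and Timp1 the CuO 40 samples already lie near or above the OVA control means of 11.39 and 13.92.

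A second question was whether the allergen effect itself differed between exposed and unexposed lung. In controls OVA raised 1042 genes (4.55%) and lowered 449 (1.96%), 6.51% of all genes. The difference between the effect with CuO 40 and that in controls was called in 1240 genes (5.41%), with a larger value in 407 (1.78%) and a smaller one in 833 (3.64%). The 2 effects shared no sample. That in controls rested on 8 against 7 samples (median SE 0.07) and that with CuO 40 on 3 against 3 (median SE 0.12). Numbers of genes called in each are thus unlike in power. Of the 1042 genes raised in controls, 70 (6.72%) were also raised with CuO 40, 646 had a smaller effect there and 0 a larger one. These genes were chosen by the control effect that the difference subtracts, which favours a smaller value, so the 646 and the 0 are given as a description only. Their median effect was 0.91 in controls and 0.22 with CuO 40. The median of their group means was 8.00 in PBS, 9.18 in OVA, 8.91 in CuO 40 and 9.11 in CuO 40 + OVA, so that the 3 exposed or challenged groups stood close together. Of the 449 genes lowered in controls, 1 (0.223%) was lowered with CuO 40, and their median effects were -0.70 and -0.05. The difference was called in 253 genes, 28 larger and 225 smaller, with dye and each hybridisation as fixed terms. With CuO 40 replicate 2 left out, the larger differences numbered 197. PBS replicates 1 to 3 and OVA replicates 1 to 4 lay on slides 1 to 3, like the 6 samples, and the other controls on slides 4 to 6. With the samples of slides 1 to 3 only, 352 differences were larger and 761 smaller.

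**Figure D3:**
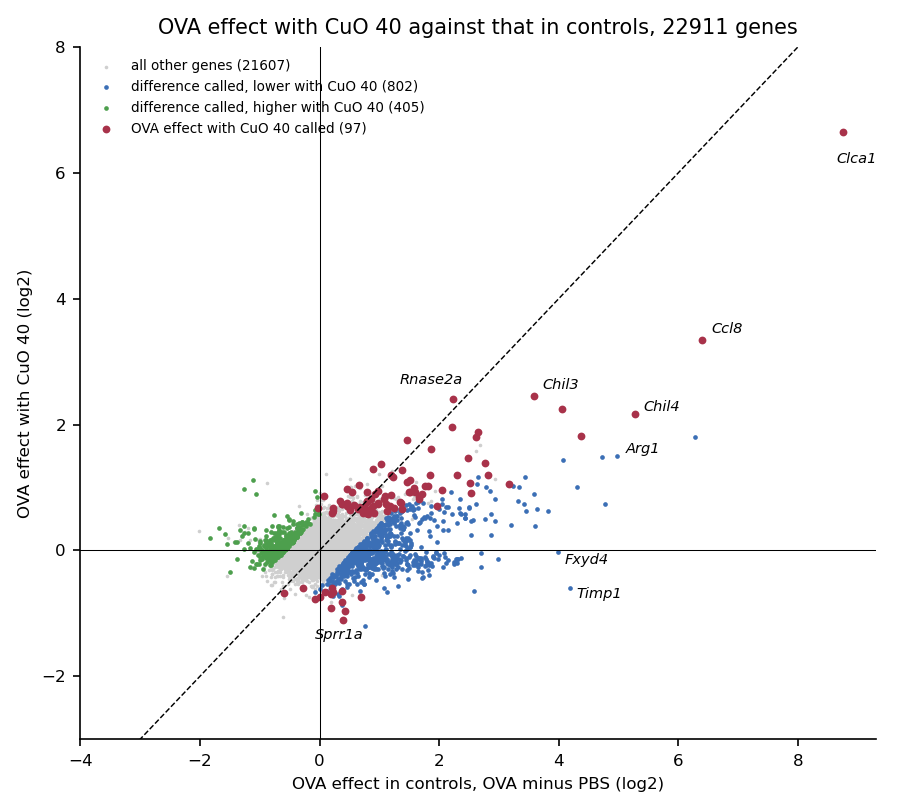
Log2 OVA effect in controls (horizontal) against that with CuO 40 (vertical) for 22911 genes. The 802 genes with a lower difference from controls lie below the line of equal effects and the 405 with a higher one above it, and the 97 genes called with CuO 40 are marked on their own.

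Proliferation genes differed throughout. All 21 mitotic genes were raised by OVA in controls, with a median of 1.66, 0 were called with CuO 40, where the median was -0.15, and the difference was called in all 21. Mki67, a marker of cycling cells, stood at 11.95, 11.77 and 11.68 in CuO 40 and at 11.54, 11.80 and 11.62 in CuO 40 + OVA. These samples overlapped, above the PBS mean of 9.07 ± 0.33 (SD, n = 7) and the OVA mean of 11.39 ± 0.24 (SD, n = 8). The acute phase and matrix gene Timp1, an inhibitor of metalloproteinases, had the largest difference named by the rule, -4.78 (SE 0.49), since OVA raised it by 4.18 in controls and its effect with CuO 40 was -0.60. In goblet cell genes the difference was called lower in 11 of 18, among them the anion exchanger Slc26a4 (-4.04, SE 0.46) and Agr2 (-3.30, SE 0.52). In genes of alternatively activated macrophages it was called lower in 16 of 18, with Arg1 at -3.47 (SE 0.61). Monocyte chemokines had a smaller effect in 7 of 11 and acute phase genes in 9 of 17.

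In genes of the eosinophil list the difference was rarely called. Their median effect was 1.20 in controls and 1.19 with CuO 40, with 9 of 13 called in each, and the difference was lower in 0 of 13 and higher in 1, Siglecf (0.78, SE 0.19, adjusted p = 0.00348). For Rnase2a the difference was 0.17 (SE 0.35) and for Ear10 0.29 (SE 0.30), neither of which was called. Their levels were not those of controls, since Rnase2a averaged 12.46 in PBS and 14.69 in OVA, above all 6 exposed samples. T cell genes had medians of 0.47 in controls and 0.43 with CuO 40, and 1 of the 23, Il2ra, had a smaller effect (-0.72, SE 0.25). Its call was lost in 17 of 35 alternatives, and the value was 0.19 with dye and each hybridisation as fixed terms.

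The 83 rises were mostly rises of the controls too. In 70 (84.3%) OVA raised the gene in controls, in 0 it lowered it, and 13 were not called there. The difference was called in 21 of the 83, smaller in 19 and larger in 2, which were Siglecf and the cholesterol transporter Abcg1 (0.69, SE 0.18, chosen after its values were seen). Of the 14 falls, 1 (Wnt7a, named after its values were seen) was lowered and 1 (Atp6v0a4) raised in controls, and 12 had a lower effect than in controls. Over all genes the difference was larger in 1.78% and smaller in 3.64%. Rises and falls alike were chosen by the CuO 40 effect that enters the difference, which favours a value in their own direction. The 12 and the 2 are thus a description only.

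Of the 407 genes with a larger value of the difference, 261 were among the 449 that OVA lowered in controls, an overlap that the shared control samples favour. Scgb3a2, a secretoglobin of club cells, had an effect of -1.26 in controls and 0.97 with CuO 40, a difference of 2.23 (SE 0.49). Its levels with CuO 40 were 15.50, 14.04 and 14.04, and with allergen 15.13, 15.11 and 16.27, which overlap. The carbonic anhydrase Car3 (2.24), Fabp1 (2.04), the muscle gene Tcap (2.03), the clock-controlled factor Dbp (1.96) and the esterase Pon1 (1.85) had the other large differences. Car3 overlapped between the groups, at 8.39, 6.90 and 7.04 without and 8.17, 8.00 and 9.53 with allergen. Its call was lost in 8 of 35 alternatives and that of Tcap in 10. Fabp1 and Dbp lost theirs in 1 and Pon1 in 0. As given above, Fabp1 was far lower in both CuO 40 groups than in PBS controls. Club cell markers had 6 of 10 with a larger value, clock genes 7 of 16, endothelial markers 5 of 12 and alveolar type 1 markers 4 of 9, and in 0 of these markers was the OVA effect with CuO 40 called.

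Of 11 genes that the study itself names, 1 was called with CuO 40 (Ccl11) and 9 in controls. The study picked 3 of them (Ccl2, Ccl7, Ccl11) from these arrays. It also reported Il33, Il4, Ccl11, Ccl24, Ccl17, Muc5ac and Muc5b as raised by OVA on the same arrays. The count in controls is thus no independent evidence of direction. For Ccl2 and Ccl7, chemokines of monocytes, the effects of 2.87 and 3.59 in controls stood against 0.58 (SE 0.48) and 0.89 (SE 0.52). The tumour necrosis factor gene Tnf had an effect of 0.54 in both, under the cut of 0.58, and was called in neither. By PCR the study reported higher Tnf, Il33 and Il13 in lungs of OVA-challenged than of PBS-challenged mice.

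The dose series set the effect at 40 μg beside those at lower doses of the same particle. OVA changed 1491 genes in controls (6.51%), 1017 with CuO 2.5 (4.44%), 835 with CuO 10 (3.64%) and 97 with CuO 40 (0.423%). The control count is not on a par with the others, as it rests on 8 against 7 samples and each dose on 3 against 3. The median SE was 0.07 in controls and 0.12 at each dose. In the 1042 genes raised in controls the median effect was 0.61, 0.59 and 0.22 at 2.5, 10 and 40 μg. The list medians fell in the order of dose for mitotic genes, with 1.66, 0.62, 0.45 and -0.15 from controls to 40 μg. Goblet cell genes had 2.52, 1.75, 1.98 and 0.62, and eosinophil genes 1.20, 1.61, 1.52 and 1.19. Interferon response genes had 0.66, -0.01, 0.62 and 0.86. These medians are descriptions, and differences between them were not tested.

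**Figure D4:**
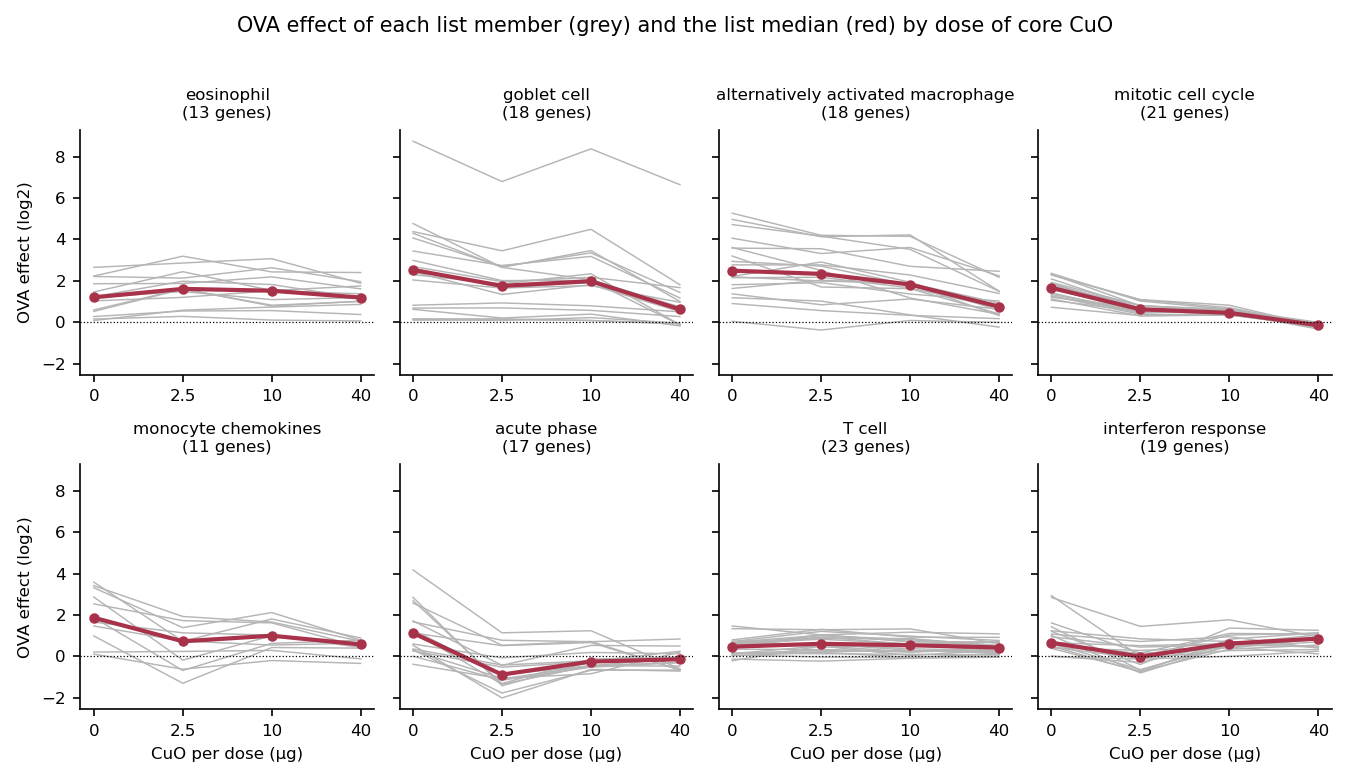
Log2 OVA effect of the members of 8 gene lists (grey lines) and their median (red) in controls and with core CuO at 2.5, 10 and 40 μg a day. The median of the eosinophil list is 1.20 in controls and 1.19 at 40 μg, while that of the mitotic list goes from 1.66 to -0.15.

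Particles with COOH, NH3 and PEG surface groups had been given at the same dose, and the allergen effect with each was set against that with core CuO, in 3 pairs that share the core CuO samples. The slide term removes differences in level between slides. It does not remove a difference in the allergen effect between slides, which was not tested. OVA changed 442 genes with the COOH particle (1.93%), 272 with NH3 (1.19%) and 668 with PEG (2.92%). Against COOH the difference was called in 0 genes (0%), with 2054 at an unadjusted limma p under 0.05. Against NH3 it was called in 2 (0.00873%), Doc2b and Nags, both at -0.86 (SE 0.16 and 0.14). Against PEG it was called in 2 (0.00873%), the growth factor gene Csf2 (1.31, SE 0.24) and the kinesin Kif18b (-0.97, SE 0.18). The p-values were adjusted over all genes within each pair. These 4 genes are named after their values were seen.

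Among the 22 genes named as the largest rises and falls, the 95% interval of the difference held 0 in 16 against COOH, 20 against NH3 and 11 against PEG, and the lowest adjusted p was 0.252, 0.646 and 0.259. The intervals were wide. For Clca1 the difference from COOH was 1.70 (95% interval -1.20 to 4.59), and for Rnase2a it was 0.30 (-0.55 to 1.15). For Camk2n2 it was -0.72 (-1.06 to -0.38, adjusted p = 0.252). A missed threshold does not show that the particles acted alike. The count against PEG depended on the batch terms, with 6 genes higher and 21 lower when dye and slide alone were fitted, and 0 and 0 after loess normalization.

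**Figure D5:**
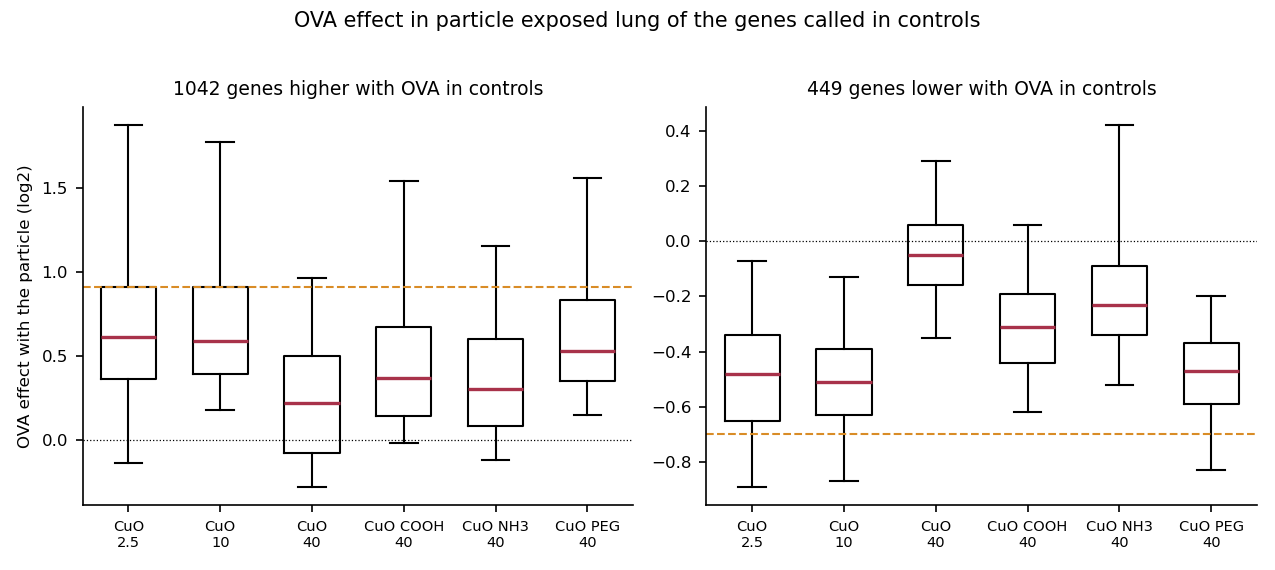
Log2 OVA effect of the 1042 genes raised and the 449 genes lowered in controls, with core CuO at 2.5, 10 and 40 μg and with COOH, NH3 and PEG particles at 40 μg. Boxes are quartiles with the median, whiskers the 5th to 95th percentile and the dashed line the control median (0.91 and -0.70); at 40 μg the medians of the raised genes are 0.22, 0.36, 0.30 and 0.53 for core, COOH, NH3 and PEG.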

How the data were processed

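RNA of lung tissue was measured on 2-colour Agilent mouse arrays, in 89 samples of 26 groups on 46 arrays and 6 slides. The authors' scanner files hold the intensity of each spot as Feature Extraction 12.0.2.2 gave it, per the file headers. The deposited value table states no scale. Set against the scanner values, it held log2 values that the authors had quantile normalized before they were deposited, and each of its 89 columns matched the channel of its own sample. The number of arrays limits the precision.

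Each sample is 1 dye channel. The log2 of the median foreground was taken without background subtraction, control spots (3671) and outlier spots were left out, and the channels were quantile normalized over 89 samples. Of 56605 probes 32994 had a RefSeq gene, and averaging them gave 22911 genes, of which 60 had a missing value in some sample. limma 3.58.1 in R 4.3.3 fitted group with dye, slide and array position as fixed terms over all 89 samples, in place of a term for each array, which would compare these groups through their array partners and is given as an alternative. All groups share 1 estimate of the spread, and p-values were adjusted by Benjamini-Hochberg over all genes. The methods call the pools independent but do not say that they came from separate experiments, so p-values measure the spread between these pools.

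Named genes were the largest 12 rises and falls, predicted gene names left out, that did not overlap and moved one way in every pair (10 falls met this), up to 4 called members of each list, the genes named in the study, and for the difference from controls the largest 6 in each direction and up to 3 of each list. Members, lists and tests were chosen with earlier results of these data known. Results of some genes that met this rule are not reported here. Promoter letters came from RefSeq tables of GRCm38.p6.

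The replicate number stands for a slide and a dye in both groups. Before batch terms were removed, deviations of same-numbered samples from their group mean correlated at 0.449, 0.494 and 0.261, which pairs them, and afterwards at -0.037, 0.083 and -0.022. On simulated data with 22851 genes, the OVA effect with CuO 40 was recovered in 98 of 100 genes changed by 1 and 99 of 100 changed by 2 on the log2 scale, with 4 false calls. The changed genes were picked at random, with independent normal noise of each gene's fitted spread. This checks the fit and does not give the share of allergen genes found. The median SE over all genes was 0.12, while Arg1, with an effect of 1.5 and an SE of 0.54, was not called. Alternatives covered the batch terms, background correction, normalization, dim probes, probe choice, the threshold, the deposited values and leaving out samples.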

Additional observations from a re-analysis of the deposited data

Results flagged for a closer look

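The allergen effect differed between CuO 40 exposed lung and controls by the test of the difference itself (limma, adjusted over all genes), with a larger value in 407 genes and a smaller one in 833. The differences below are on the log2 scale, effect with CuO 40 minus effect in controls.

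Among chemokines and cytokines the difference was -3.05 for Ccl8, -3.23 for Ccl24, -1.86 for Ccl17, -2.29 for Ccl2, -2.69 for Ccl7 and -1.40 for Il33. Among goblet cell and airway genes it was -2.63 for Muc5ac, -1.92 for Muc5b, -2.56 for Itln1, -1.08 for Spdef, -3.30 for Agr2, -4.04 for Slc26a4 and -4.01 for Fxyd4. Macrophage genes had -3.47 for Arg1, -3.11 for Chil4, -1.82 for Cd209e, -1.37 for Pdcd1lg2 and -0.79 for Mrc1, with 0.78 for Siglecf and 0.69 for Abcg1. Acute phase and complement genes had -4.78 for Timp1, -3.24 for Serpina3n, -1.80 for Serpina3m, -1.92 for C1qa, -2.08 for C1qb and -1.80 for C1qc. Mitotic genes had -2.46 for Mki67, -2.20 for Top2a and -2.50 for Ccna2.

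For the genes that fell with allergen in exposed lung, the difference was -1.38 for Sprr1a, -1.12 for Ereg, -0.69 for Pappa, -1.43 for Atp6v0a4, -0.89 for Cers3, -0.75 for Homer2, -0.89 for Tnfrsf12a, -1.03 for Mrap and -0.81 for Camk2n2. They were chosen by the fall that the difference contains, which favours a value below 0. Values above 0 were found for Car3 (2.24), Scgb3a2 (2.23), Fabp1 (2.04), Tcap (2.03), Dbp (1.96), Pon1 (1.85), Nr1d2 (1.02), Aldh1a1 (0.98) and Cry2 (0.83).

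Single PBS control samples lay far from the rest in 4 of 44 tested sets of values, where chance gives about 1 in 20. The highest Cebpe level was 8.72, the lowest Itln1 level 7.32, the lowest Alox15 level 5.81 and the lowest Muc5b level 9.51.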

How the results depend on the processing

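The number of genes called was the result that moved most. For the OVA effect with CuO 40 (83 higher, 14 lower), dye and hybridisation as fixed terms gave 5 higher and 0 lower, with 940 genes at an unadjusted limma p under 0.05. Slides 1 to 3 alone gave 81 and 3, and the adjusted p alone gave 116 and 32. The 6 samples alone with the replicate block gave 12 and 0, and without block or batch terms 0 and 0, with 1038 genes at an unadjusted p under 0.05. Leaving out 1 of the 6 samples gave 16 to 116 higher and 0 to 54 lower. Chosen after seeing the data, leaving out replicate 2 of both groups gave 17 and 0, slide 2 gave 7 and 0, replicate 1 of both groups 120 and 68 and replicate 3 of both groups 4 and 0. The replicate block with dye over 89 samples (62 and 14), the random array block, dye and slide alone, normexp, loess, dim probes left out, the brightest probe and the deposited values moved these counts by less than 1.5 times.

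For the difference from controls (407 larger, 833 smaller), dye and hybridisation gave 28 and 225, the adjusted p alone 1378 and 1852, and slide 2 left out, chosen after seeing the data, 246 and 636. Leaving out 1 sample gave 197 to 523 larger, and the smaller ones stayed within 1.5 times of 833. With dye and hybridisation the difference of Il2ra turned to 0.19 (adjusted p 0.981). Signs were followed for the 97 genes called with CuO 40, and for the difference only in genes named by the rule and Abcg1. Among these no other called value turned. The uncalled effects with CuO 40 of Il33 (-0.11 to 0.23), Muc5b (-0.05 to 1.00) and Il13 (-0.26 to 0.02) changed sign over the alternatives. The cause of these changes was not tested. Of the 83 rises, calls were made in 6 to 22 of 23 alternatives, with a median of 12. Probes near background, as for Clca1, Epx, Il4 and Il13, limit what could be measured.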
